A study of Mus musculus with 8 samples.

Results

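The genes described here are 38 antioxidant genes of the mouse kidney: the transcription factor NRF2 (gene Nfe2l2) and its inhibitor Keap1, enzymes whose genes NRF2 switches on, the enzymes that make and use glutathione, the superoxide dismutases, catalase and peroxiredoxins, 2 metallothioneins and the NADPH oxidase Nox4. They were chosen by symbol, as the array probes that carry one of the 38 names, with the brightest probe standing for a gene. All 38 were found on the array and all were among the 25127 genes and unnamed transcripts tested. The brightest probe of each of the 38 was well above background on all 8 arrays, so no member entered through 1 group alone.

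The samples were kidneys of CD-1 mice, an outbred stock. The 4 control samples came from mice given physiological serum, and the 4 tacrolimus samples from mice given tacrolimus at 1 mg/kg per day for 28 days. Tacrolimus (FK506) is a calcineurin inhibitor that is given to prevent rejection of transplanted organs and that can damage the kidney. Total RNA of the kidney, 0.2 ug per sample with an RNA integrity number of 9 in all 8, was labelled with Cy3 and hybridised to 1-colour Agilent mouse arrays. The labels give a replicate number but do not say that each sample is a separate animal, and they give no sex, age or pooling. The p-values therefore measure the spread between these samples. The labels name no genetic change in either group.

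NRF2 is held in the cytoplasm and sent for breakdown by KEAP1. When oxidants or electrophiles modify KEAP1, NRF2 enters the nucleus, pairs with a small MAF protein and binds the antioxidant response element in the control regions of genes for glutathione synthesis, thioredoxin reduction and detoxification. Glutathione S-transferases couple glutathione to reactive compounds, and peroxiredoxins, glutathione peroxidases and catalase remove peroxides. Metallothioneins bind zinc and other metals and are switched on by the factor MTF1 at metal response elements. In the kidney the proximal tubule carries much of this machinery, and NOX4 is a major source of hydrogen peroxide there.

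Promoters of 6 members are shown as examples. Mgst1 and Srxn1 had the lowest p-values in either direction, Txnrd1 and Gclm are well known NRF2 targets, and Mt1 and Mt2 are the metallothioneins. For Gclm and Mt1 the difference between the groups was not clear (unadjusted p = 0.104 and 0.131 in limma). All 6 windows shown hold a marked match, so they do not stand for the members at large. The core of the antioxidant response element was found in 10 of the 32 members searched. The windows of Cat, Gsta2, Prdx3 and Nqo1, which are not shown, do not hold that core. Each line gives the 150 bases before a RefSeq start on the plus strand of GRCm38.p6, which is also the strand of the gene. RefSeq lists 3 starts for Txnrd1 and 2 for Mgst1. For each, the window shown is the only one that holds the motif, and the windows of the other starts have no match. The windows are Mgst1 chr6:138140377-138140526, Srxn1 chr2:152105374-152105523, Txnrd1 chr10:82859056-82859205, Gclm chr3:122245407-122245556, Mt1 chr8:94178939-94179088 and Mt2 chr8:94172468-94172617. In the first group capitals mark a match to the core of the antioxidant response element, TGACNNNGC, on either strand, and in Srxn1 a match to TGAGTCAGC, a form that was searched only after this promoter had been read.
Mgst1: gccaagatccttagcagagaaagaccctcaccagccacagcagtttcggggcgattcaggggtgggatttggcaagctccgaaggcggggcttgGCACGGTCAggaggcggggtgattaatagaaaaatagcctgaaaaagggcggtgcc
Srxn1: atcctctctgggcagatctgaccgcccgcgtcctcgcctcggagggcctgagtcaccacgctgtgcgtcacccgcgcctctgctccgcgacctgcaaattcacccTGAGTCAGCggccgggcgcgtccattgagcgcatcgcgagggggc
Txnrd1: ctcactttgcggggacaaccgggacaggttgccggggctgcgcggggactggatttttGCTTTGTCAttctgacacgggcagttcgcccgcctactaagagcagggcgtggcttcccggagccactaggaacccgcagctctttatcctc
Gclm: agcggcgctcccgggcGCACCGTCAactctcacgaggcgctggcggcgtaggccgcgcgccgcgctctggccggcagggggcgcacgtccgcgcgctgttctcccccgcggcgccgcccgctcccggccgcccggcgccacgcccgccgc
The match lay 56 to 48 bases before the start shown in Mgst1, 45 to 37 in Srxn1, 92 to 84 in Txnrd1 and 134 to 126 in Gclm. Capitals in the next pair mark the core of the metal response element, TGCGCNC or TGCACNC, on either strand.
Mt1: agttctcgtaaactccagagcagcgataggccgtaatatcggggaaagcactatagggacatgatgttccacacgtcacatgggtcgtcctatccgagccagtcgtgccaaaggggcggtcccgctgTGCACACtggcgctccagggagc
Mt2: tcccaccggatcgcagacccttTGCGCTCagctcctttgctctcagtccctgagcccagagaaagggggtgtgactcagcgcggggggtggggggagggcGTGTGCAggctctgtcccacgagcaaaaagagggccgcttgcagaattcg
The match in Mt1 lay 23 to 17 bases before the start, and those in Mt2 lay 128 to 122 and 50 to 44 bases before it. A match to TGACNNNGC also lies in the Mt2 window, 79 to 71 bases before the start, and in Gclm the marked match overlaps a metal response core 138 to 132 bases before the start. Unmarked metal response cores also lie 72 to 66 bases before the start in Gclm and 19 to 13 before it in Srxn1. Mt1, Mt2 and Gclm hold further cores outside the printed stretches.

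RefSeq promoter windows (250 bases before to 50 after a start, GRCm38.p6) were matched for 32 of the 38 members. Gclc, Hmox1, Gsr, Sod3, Prdx6 and Gsta4 were not matched. TGACNNNGC was found in at least 1 window of 10 of the 32 genes: Gclm, Ggt1, Gsta3, Mgst1, Mt2, Nfe2l2, Prdx1, Sod1, Srxn1, where this match lay after the start, and Txnrd1. Counted by window, 28.6% of 42 member windows held it, against 12.4% of all 32851 promoter windows. Windows of 1 gene are not independent: Ggt1 alone has 4 windows, several of them with a match. A share by gene over all promoters was not computed. The metal response core was found in 10 of the 32 genes and in 26.2% of the member windows, against 25.7% of all windows. TGAGTCAGC was found in 0.414% of all windows and, among the members, in those of Srxn1 and Gstp1. It was searched after the Srxn1 promoter had been read, so the match in Srxn1 was known in advance and carries no weight against that share. A match is a run of letters in the window and was not tested for binding.

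Across the array, tacrolimus against control gave 57 genes at an adjusted p under 0.05 in limma, which is 0.227% of those tested (0.187% higher and 0.0398% lower). No member was among them, and the lowest adjusted p of a member was 0.0552. At an unadjusted p under 0.05, 14 of the 38 members passed (36.8%), against 15.5% of all genes tested. Of these 14, 5 were higher in tacrolimus kidneys (Mgst1, Gsta2, Gsta4, Mt2 and Prdx4) and 9 were lower (Srxn1, Hmox1, Txnrd1, Txn1, Gclc, Cat, Sod3, Prdx3 and Gstp1). The same shares over all genes were 7.04% higher and 8.42% lower. In 8 members the 4 arrays of one group did not overlap with the 4 of the other (21.1%), against 10.1% of all genes. Tacrolimus lay above in 2 of them, Mgst1 and Prdx4, and below in 6, against 4.35% and 5.75% of all genes. Members and genes at large share the arrays and genes are not independent, and the members were chosen with earlier results of these data known. These shares are therefore a description and not a test of the list. The same holds for the counts by role below, where a role holds 1 to 10 members.

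Over the members, the median difference was -0.09 on the log2 scale, beside -0.05 over all genes tested. The difference was above 0 in 13 members and below 0 in 25, while 39.5% of all genes lay above 0 and 60.5% below. In these values a level is the log2 of the background-corrected spot signal minus the 75th percentile of that array, and a difference is the tacrolimus mean minus the control mean. Each probe has its own brightness, so levels are compared between samples and not between genes.

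**Figure D1:**
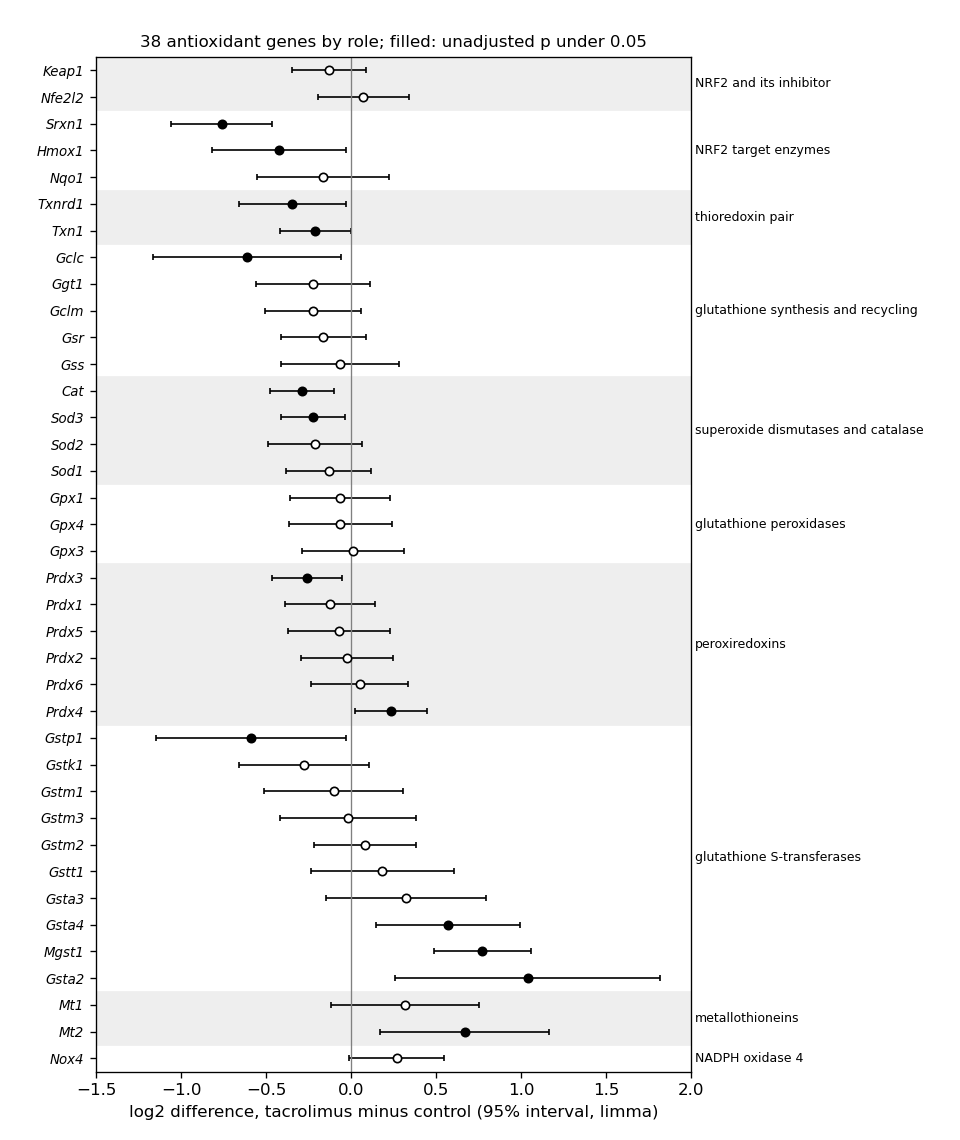
Difference of each of the 38 genes (points, tacrolimus minus control, log2 units) with its 95% interval from limma (bars), in blocks by role. Filled points are the 14 genes at an unadjusted p under 0.05. The filled points at the left include Srxn1 at -0.76 and Gclc at -0.61, and those at the right Mgst1 at 0.77 and Gsta2 at 1.04.

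The mRNA of NRF2 itself differed little between the groups. Nfe2l2 had levels of 3.30, 3.32, 3.34 and 3.20 in control replicates 1 to 4 and 3.31, 3.38, 3.11 and 3.64 in tacrolimus replicates 1 to 4. Both ends of the range lay in the tacrolimus group, and the difference was 0.07 (95% interval -0.20 to 0.34, unadjusted p = 0.559 in limma). Keap1, the inhibitor, differed by -0.13 (95% interval -0.35 to 0.09, unadjusted p = 0.209). NRF2 is regulated mainly through its protein, which the arrays do not measure.

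The 3 enzymes grouped as NRF2 targets, Srxn1, Hmox1 and Nqo1, all had a lower mean in tacrolimus kidneys. Their median difference was -0.42, beside -0.05 over all genes. At an unadjusted p under 0.05, 2 of them were lower, against 8.42% of all genes. This group does not stand for all NRF2 targets, since others, such as Txnrd1, Gclm and Prdx1, are grouped under other roles. By their brightest probes Txnrd1, Gclm and Prdx1 had lower means too (-0.35, -0.22 and -0.13). The glutathione S-transferases, which are detoxification genes, did not share that direction: 6 of the 10 had a higher mean and 4 a lower one. The 23 further NRF2 targets described below had a median difference of -0.03. Of them, 4 were higher and 1 lower at that p, against 7.04% and 8.42% of all genes. Srxn1 encodes sulfiredoxin, which restores over-oxidised peroxiredoxins, and its probe lies at chr2:151937009-151937068 (mm9). Its levels were 4.24, 4.15, 4.47 and 3.98 in control replicates 1 to 4 and 3.32, 3.30, 3.56 and 3.61 in tacrolimus replicates 1 to 4. Every tacrolimus array lay below every control array, by at least 0.37. The mean was 4.21 ± 0.21 (SD, n = 4) in control and 3.45 ± 0.16 (SD, n = 4) in tacrolimus kidneys. This was a difference of -0.76 ± 0.13 (SE), or 1.69-fold higher signal in control kidneys. The unadjusted p was 0.000317 and the adjusted p 0.0553 in limma, and the exact two-sided permutation test gave p = 0.0286, the smallest that 4 against 4 samples allow. The call depended on the processing: Srxn1 passed an adjusted p of 0.05 under 5 of 19 alternative settings, with adjusted p from 0.0266 to 0.146 over the alternatives in limma. Its promoter, printed above, holds a TGAGTCAGC close to the start, the form searched after this promoter had been read.

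Hmox1 encodes heme oxygenase 1, which breaks heme down to biliverdin, iron and carbon monoxide. Its levels were 1.75, 2.21, 2.52 and 1.84 in the control and 1.67, 1.52, 1.80 and 1.65 in the tacrolimus replicates. The control arrays were more scattered, with SD 0.35 against 0.11, and control 1 lay below tacrolimus 3, so the groups overlapped. The difference was -0.42 ± 0.17 (SE; unadjusted p = 0.0387, adjusted p = 0.297 in limma), and a further probe gave -0.43. Without control 3, the highest array, it was -0.28 and no longer passed that threshold (unadjusted p = 0.0848 in limma). Nqo1, a quinone reductase often used as a readout of NRF2, had levels of 1.11, 1.23, 1.52 and 1.10 in control and 1.07, 0.64, 1.30 and 1.29 in tacrolimus kidneys. The ranges overlapped on most arrays, and the difference was -0.17 (95% interval -0.55 to 0.22).

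Both genes of the thioredoxin pair were lower in every tacrolimus array than in every control array, as were 5.75% of all genes. Of the 9 further thioredoxin genes tested, none had groups that did not overlap. Thioredoxin (Txn1) is a small protein that reduces disulfides in other proteins, and thioredoxin reductase 1 (Txnrd1) recharges it with NADPH. Txnrd1 had levels of 3.99, 4.22, 4.59 and 4.02 in control and 3.81, 3.87, 3.89 and 3.86 in tacrolimus kidneys. The tacrolimus arrays were tightly grouped (SD 0.03) and the control arrays spread upward (SD 0.28). The difference was -0.35 ± 0.14 (SE), 1.27-fold higher signal in control, with unadjusted p = 0.0344 and adjusted p = 0.290 in limma. Without control 3, its highest array, the difference was -0.22 (unadjusted p = 0.0573 in limma). For Txn1 the levels were 6.28, 6.11, 6.26 and 6.10 against 6.07, 5.86, 5.92 and 6.05. The gap between the groups was 0.03, and the difference was -0.21 ± 0.09 (SE; unadjusted p = 0.0475 in limma). The exact permutation p was 0.0286 for both genes. Groups of 4 that do not overlap always give that value, so it adds nothing to the separation.

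The 5 genes of glutathione synthesis and recycling all had a lower mean in tacrolimus kidneys. Their median difference was -0.22, beside -0.05 over all genes. At an unadjusted p under 0.05, 1 of them, Gclc, was lower, against 8.42% of all genes. Gclc and Gclm encode the catalytic and the modifier subunit of glutamate-cysteine ligase, the rate-limiting step of glutathione synthesis. Gclc levels were 5.92, 5.98, 5.65 and 5.49 in control and 5.60, 4.54, 4.95 and 5.50 in tacrolimus kidneys. Tacrolimus 2 and 3 were the lowest arrays, while tacrolimus 1 and 4 lay within the control range. The difference was -0.61 ± 0.24 (SE), 1.53-fold higher signal in control (unadjusted p = 0.0332, adjusted p = 0.287 in limma, exact permutation p = 0.0857). Without tacrolimus 2 the difference was -0.41 and no longer passed that threshold (unadjusted p = 0.0707 in limma).

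Gclm had levels of 2.72, 2.80, 2.97 and 2.68 in control and 2.57, 2.28, 2.71 and 2.72 in tacrolimus kidneys. Tacrolimus 2 was again the lowest array, and the other 3 lay near or within the control range. The difference was -0.22 (95% interval -0.50 to 0.06, unadjusted p = 0.104 in limma). Glutathione synthetase (Gss), the second step, differed by -0.06 (95% interval -0.41 to 0.28). Glutathione reductase (Gsr), which returns oxidised glutathione to its reduced form, differed by -0.16 (95% interval -0.41 to 0.09). Ggt1, the brush border enzyme that starts the breakdown of glutathione outside the cell, differed by -0.22 (95% interval -0.56 to 0.11). None of the intervals of these 4 genes excluded 0.

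Superoxide dismutases turn superoxide into hydrogen peroxide, and catalase turns hydrogen peroxide into water and oxygen. All 4 genes had a lower mean in tacrolimus kidneys, by small amounts: the median difference was -0.22, beside -0.05 over all genes. At an unadjusted p under 0.05, 2 of the 4, Cat and Sod3, were lower, against 8.42% of all genes. Cat, the peroxisomal catalase, had levels of 3.96, 3.93, 3.96 and 3.86 in control and 3.72, 3.63, 3.70 and 3.51 in tacrolimus kidneys. The groups did not overlap, and replicates of one group lay within a narrow range. The difference was -0.29 ± 0.08 (SE), 1.22-fold higher signal in control (unadjusted p = 0.00780, adjusted p = 0.177 in limma, exact permutation p = 0.0286). A further Cat probe, whose groups overlapped, gave -0.08 (unadjusted p = 0.459 in limma), so the probes of Cat disagreed in size.

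Sod3, the extracellular form, had levels of 6.95, 6.92, 6.96 and 6.84 in control and 6.73, 6.57, 6.75 and 6.74 in tacrolimus kidneys. Here too every tacrolimus array lay below every control array, and the difference was -0.22 ± 0.08 (SE; unadjusted p = 0.0247, adjusted p = 0.258 in limma). The mitochondrial Sod2 differed by -0.21 (95% interval -0.49 to 0.07) and the cytosolic Sod1 by -0.13 (95% interval -0.38 to 0.12).

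Of the glutathione peroxidases, none passed an unadjusted p of 0.05. Gpx1, the cytosolic form, differed by -0.07 (95% interval -0.36 to 0.23). Gpx4, which reduces lipid peroxides in membranes, differed by -0.06 (95% interval -0.36 to 0.24). Gpx3, the plasma form that the proximal tubule secretes, differed by 0.01 (95% interval -0.29 to 0.31). The signs of all 3 turned under another scaling or normalization. With 4 samples per group these intervals leave room for differences larger in size than the -0.29 seen for Cat.

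The 6 peroxiredoxins, which reduce peroxides with a reactive cysteine, were divided. Prdx3, the mitochondrial form, had levels of 4.23, 4.22, 4.28 and 4.00 in control and 3.92, 3.98, 3.95 and 3.84 in tacrolimus kidneys. Its groups did not overlap, with a gap of 0.03, and the difference was -0.26 ± 0.09 (SE; unadjusted p = 0.0195, adjusted p = 0.241 in limma). Prdx4, the form of the endoplasmic reticulum, had levels of 1.12, 1.25, 1.16 and 1.28 in control and 1.29, 1.59, 1.41 and 1.45 in tacrolimus kidneys. Its groups did not overlap either, by 0.01, in the opposite direction: the difference was 0.24 ± 0.09 (SE; unadjusted p = 0.0335, adjusted p = 0.288 in limma). A dimmer probe of Prdx4 gave 0.03 (unadjusted p = 0.820 in limma).

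The other 4 peroxiredoxins lay between -0.13 and 0.05, and all of their intervals included 0. Prdx2, a cytosolic form abundant in red cells, differed by -0.02, and Prdx6, which uses glutathione as its reducing partner, by 0.05. The signs of Prdx2, Prdx5 and Prdx6 turned under another scaling or normalization. For Prdx1, the cytosolic form that NRF2 is known to switch on, the brightest probe gave -0.13 and a further one 0.24, so its direction was not settled. For Prdx5 a further probe gave -0.20 (unadjusted p = 0.101 in limma), beside -0.07 for the brightest.

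The 10 glutathione S-transferases included the genes with the largest positive differences, Gsta2 and Mgst1. At an unadjusted p under 0.05, 3 were higher and 1 was lower, against 7.04% and 8.42% of all genes. The median difference was 0.13, beside -0.05 over all genes. Mgst1 is a membrane-bound microsomal form that also reduces lipid peroxides, and its probe lies at chr6:138104846-138104905 (mm9). Its levels were 2.08, 2.37, 2.37 and 2.40 in control and 3.05, 3.30, 3.12 and 2.83 in tacrolimus kidneys. The lowest tacrolimus array lay 0.43 above the highest control array. The mean was 2.31 ± 0.15 (SD, n = 4) in control and 3.08 ± 0.19 (SD, n = 4) in tacrolimus kidneys, a difference of 0.77 ± 0.13 (SE) or 1.71-fold. The unadjusted p was 0.000227 and the adjusted p 0.0552 in limma, with an exact permutation p of 0.0286. A further probe gave 0.69 with groups that did not overlap either. Like Srxn1, Mgst1 passed an adjusted p of 0.05 under 5 of the 19 alternative settings, with adjusted p from 0.0256 to 0.146 over them in limma.

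Gsta2 and Gsta4 belong to the alpha class, which handles products of lipid peroxidation, GSTA4 in particular 4-hydroxynonenal. Gsta2 had levels of 0.75, 0.53, 1.37 and 1.22 in control and 1.54, 2.58, 2.60 and 1.30 in tacrolimus kidneys. Tacrolimus 2 and 3 stood well above all control arrays, and tacrolimus 4 lay within the control range. The difference was the largest of the 38 in size, 1.04 ± 0.34 (SE) or 2.05-fold, but its spread was also wide (unadjusted p = 0.0149, adjusted p = 0.222 in limma, exact permutation p = 0.0571). Gsta4 had levels of -1.24, -1.07, -1.28 and -0.76 in control and -0.78, -0.75, -0.48 and -0.07 in tacrolimus kidneys. The groups overlapped only through control 4 and tacrolimus 1, and the difference was 0.57 ± 0.18 (SE) or 1.48-fold (unadjusted p = 0.0139, adjusted p = 0.218 in limma). The third alpha gene, Gsta3, differed by 0.32 (95% interval -0.15 to 0.79).

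Gstp1, the pi class form, lay on the other side of 0. Its levels were 5.18, 4.78, 5.27 and 5.22 in control and 3.79, 4.89, 4.82 and 4.61 in tacrolimus kidneys. Tacrolimus 1 was the lowest array by a wide margin, and tacrolimus 2 and 3 lay above control 2. The difference was -0.59 ± 0.24 (SE; unadjusted p = 0.0416, adjusted p = 0.304 in limma). Without tacrolimus 1 it was -0.34 (unadjusted p = 0.0522 in limma). A further probe, whose accessions also name the near copy Gstp2, gave -0.47 (unadjusted p = 0.145 in limma).

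The other GST members lay between -0.28 and 0.18, and all of their intervals included 0. Gstk1, the kappa form of mitochondria and peroxisomes, was the lowest at -0.28 (95% interval -0.66 to 0.11). Gstt1, the theta form, was the highest at 0.18 (95% interval -0.24 to 0.60). The mu class genes Gstm1, Gstm2 and Gstm3 differed by -0.10, 0.08 and -0.02. GST genes of one class are similar in sequence, and cross-hybridisation between them was not tested. The brightest Gstm1 probe is placed on chromosome 5 by the array annotation and a further one, which gave -0.12, on chromosome 3.

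**Figure D2:**
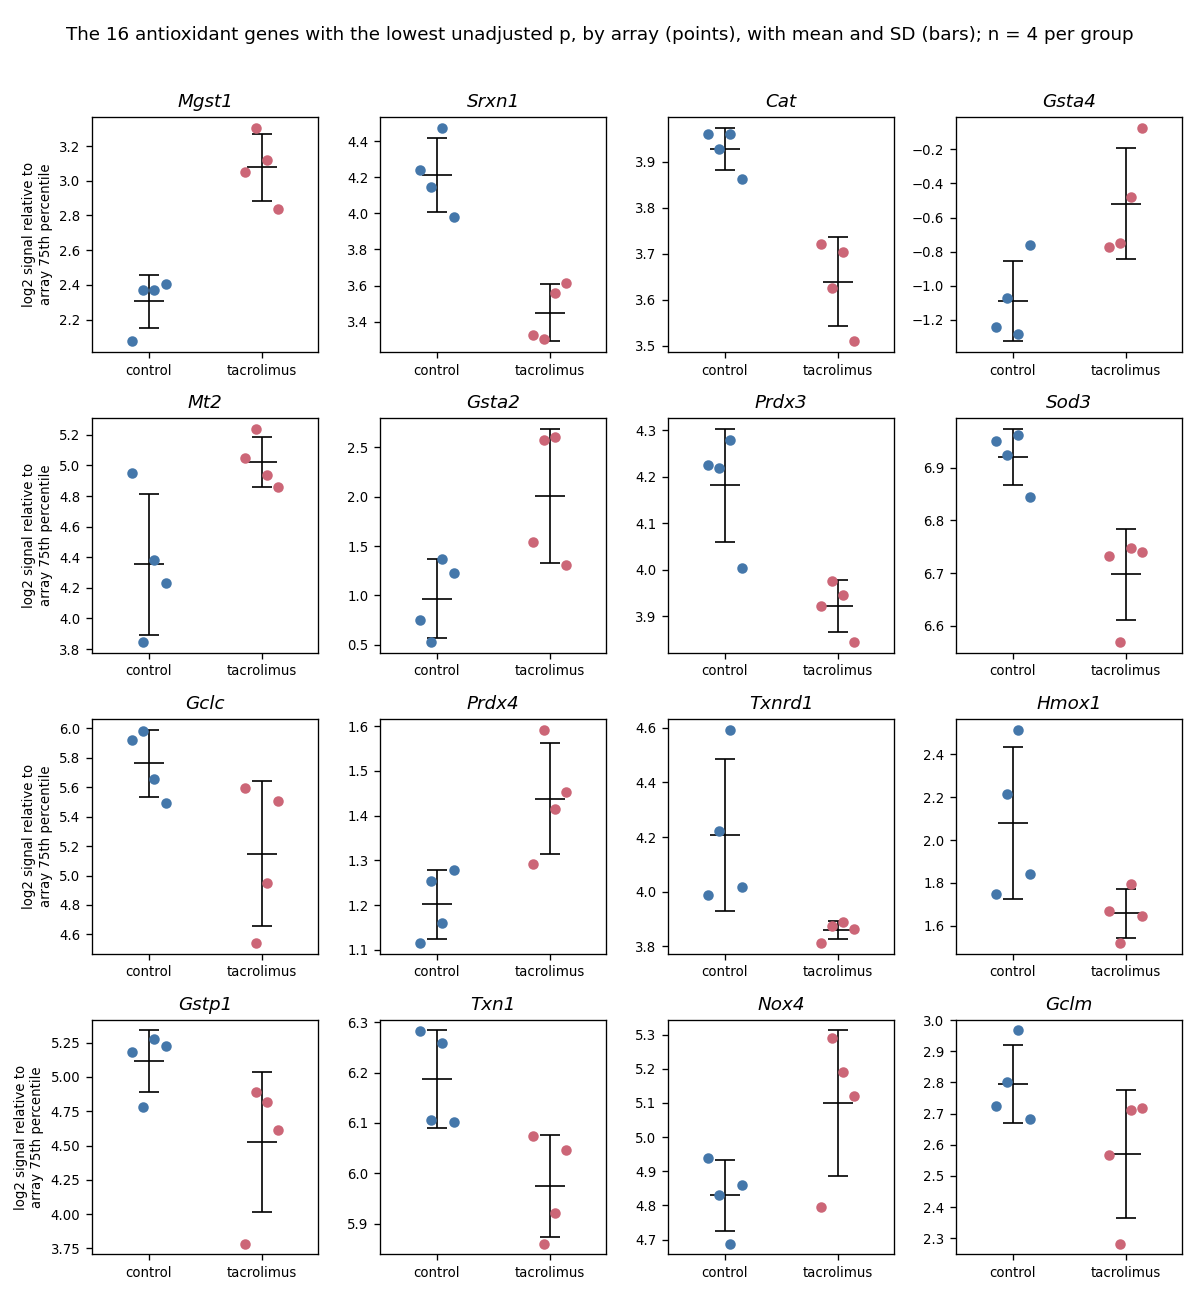
Level on each array (points, log2 signal relative to the 75th percentile of the array) of the 16 genes with the lowest unadjusted p, with the group mean and SD (bars), n = 4 per group; each panel has its own vertical axis. The groups are separate for Mgst1, Srxn1, Cat, Prdx3, Sod3, Prdx4, Txnrd1 and Txn1 and overlap for the other genes drawn.

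Both metallothioneins had a higher mean in tacrolimus kidneys. Mt2 levels were 4.95, 3.85, 4.38 and 4.23 in control and 5.05, 5.24, 4.94 and 4.86 in tacrolimus kidneys. The tacrolimus arrays lay close together (SD 0.17), the control arrays did not (SD 0.46), and control 1 lay above tacrolimus 3 and 4. The difference was 0.67 ± 0.22 (SE) or 1.59-fold (unadjusted p = 0.0144, adjusted p = 0.221 in limma, exact permutation p = 0.0857). Mt1, its neighbour on chromosome 8, had levels of 5.97, 5.03, 5.37 and 5.54 in control and 5.92, 5.89, 5.79 and 5.60 in tacrolimus kidneys. Control 1 was the highest of the 8 arrays, and the difference was 0.32 (95% interval -0.12 to 0.75, unadjusted p = 0.131 in limma). Without control 1 it was 0.48 (unadjusted p = 0.0139 in limma), and without control 2 it was 0.17 (unadjusted p = 0.339 in limma). In both genes control 1 was the highest and control 2 the lowest control array. The promoters of both hold the metal response core, as printed above. So do 25.7% of all promoter windows and that of Gclm, which had a lower mean in tacrolimus kidneys. The part of the core in these differences was not tested.

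Nox4, an NADPH oxidase that makes hydrogen peroxide rather than removing it, had levels of 4.94, 4.83, 4.69 and 4.86 in control and 4.80, 5.29, 5.19 and 5.12 in tacrolimus kidneys. Of the tacrolimus arrays, 2, 3 and 4 lay above every control array and tacrolimus 1 within the control range. The difference was 0.27 ± 0.12 (SE; 95% interval -0.01 to 0.55, unadjusted p = 0.0568, adjusted p = 0.333 in limma). Its further probes gave 0.34 and 0.18.

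**Figure D3:**
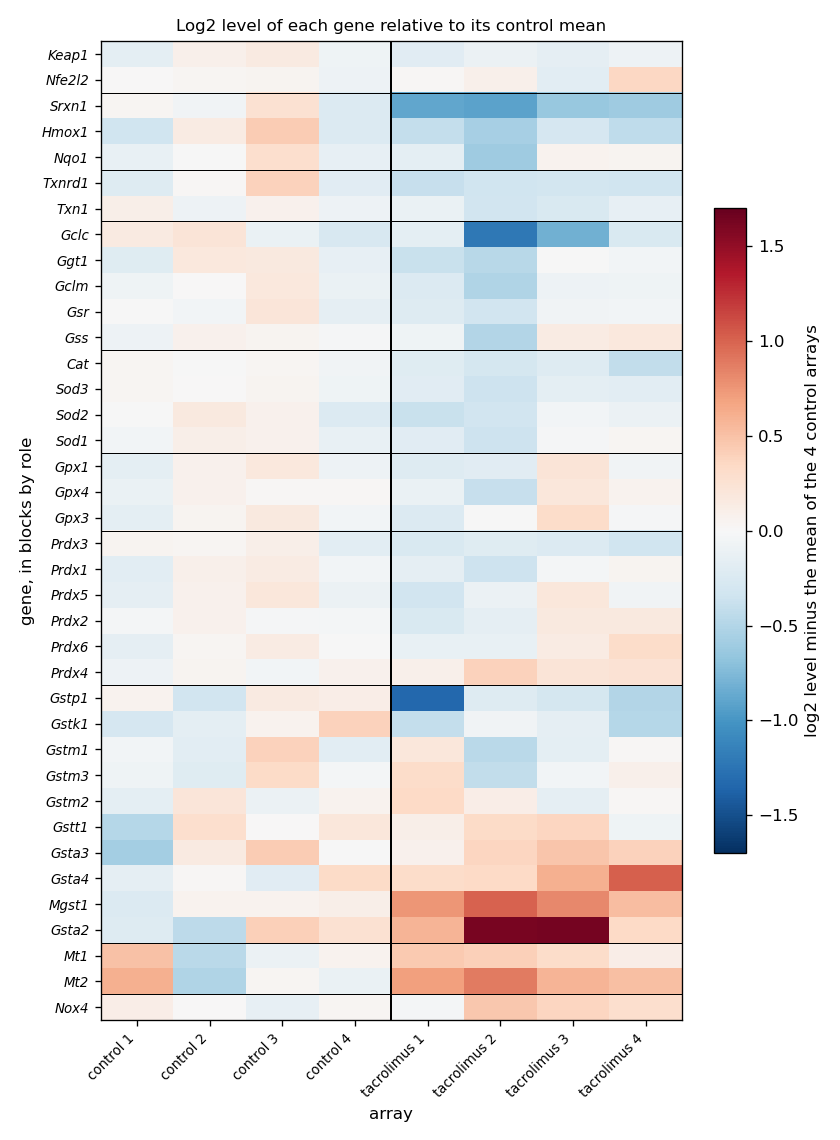
Level of each of the 38 genes on each of the 8 arrays (columns), as the log2 difference from the mean of the 4 control arrays (colour, blue lower, red higher), in blocks by role. Srxn1 is blue and Mgst1 red on all 4 tacrolimus arrays, while Gsta2 is darkest on tacrolimus 2 and 3, Gclc on tacrolimus 2 and Gstp1 on tacrolimus 1.

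The arrays of one group were not alike in these genes. Tacrolimus 2 had the lowest level of all 8 arrays in 15 members, among them Srxn1, Hmox1, Nqo1, Gclc, Gclm and Txn1, and the highest in 4 (Mgst1, Mt2, Prdx4 and Nox4). Control 3 had the highest level in 14 members, among them Srxn1, Hmox1, Nqo1, Txnrd1 and Gclm. Leaving control 3 out reduced the members lower at an unadjusted p under 0.05 from 9 to 3, and the share of all genes lower at that p from 8.42% to 5.05%. Without control 1 the count was 5, without control 2 it was 4 and without tacrolimus 2 it was 4, and the shares of all genes were 5.81%, 5.45% and 6.60%. The members higher at that p numbered 4 to 6 whichever array was left out.

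Of 105 further genes of the same pathways, 102 were tested and 3 (Slc7a11, Gpx5 and Gsta1) were not bright enough. None passed an adjusted p of 0.05 in limma. At an unadjusted p under 0.05, 17 of the 102 passed (16.7%), close to the 15.5% of all genes. Of these 17, 10 were higher (9.8% of the 102) and 7 lower (6.86%), against 7.04% and 8.42% of all genes. The median difference of the 102 was -0.05, beside -0.05 over all genes. By role, 4 of 23 further NRF2 targets were higher and 1 lower, 0 of 9 regulators and partners of NRF2 were higher and 1 (Cul3) lower, 0 of 18 genes of the glutathione cycle were higher and 2 (Hagh and Chac1) lower, and 0 of 9 thioredoxin genes passed. Of 12 further GST genes, 2 were higher and 1 lower, and of 12 genes of NADPH oxidases 3 were higher and 1 lower.

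The 8 with the lowest p were Akr1b8, Gsto1, Mt4, Ncf1, Abcc3, Ncf4, Abcc4 and Duox1. Akr1b8, an aldo-keto reductase that NRF2 is known to switch on, had levels of 1.98, 1.67, 2.19 and 2.03 in control and 2.34, 2.70, 2.60 and 2.50 in tacrolimus kidneys. Its groups did not overlap, and the difference was 0.57 ± 0.13 (SE; unadjusted p = 0.00236, adjusted p = 0.111 in limma). Gsto1, an omega class transferase, had levels of 2.65, 2.58, 2.75 and 3.06 against 3.30, 3.37, 3.38 and 3.12, with a difference of 0.53 ± 0.12 (SE; adjusted p = 0.111 in limma). The export pumps Abcc3 and Abcc4, which carry conjugated compounds out of the cell, differed by 0.85 ± 0.24 (SE) and 0.49 ± 0.14 (SE). These genes were picked for a low p. Over all 23 further NRF2 targets, 10 lay above 0 and 13 below, with a median difference of -0.03.

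Ncf1 and Ncf4 encode cytosolic subunits of the phagocyte NADPH oxidase. They differed by 0.92 ± 0.25 (SE; unadjusted p = 0.00540 in limma) and 0.78 ± 0.22 (SE; unadjusted p = 0.00703 in limma), with every tacrolimus array above every control array for Ncf4. Duox1, an epithelial oxidase, differed by -0.51 ± 0.15 (SE; unadjusted p = 0.00866 in limma), and the dim metallothionein Mt4 by -0.34 ± 0.09 (SE; unadjusted p = 0.00514 in limma). All 8 had adjusted p between 0.111 and 0.182 in limma.

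**Figure D4:**
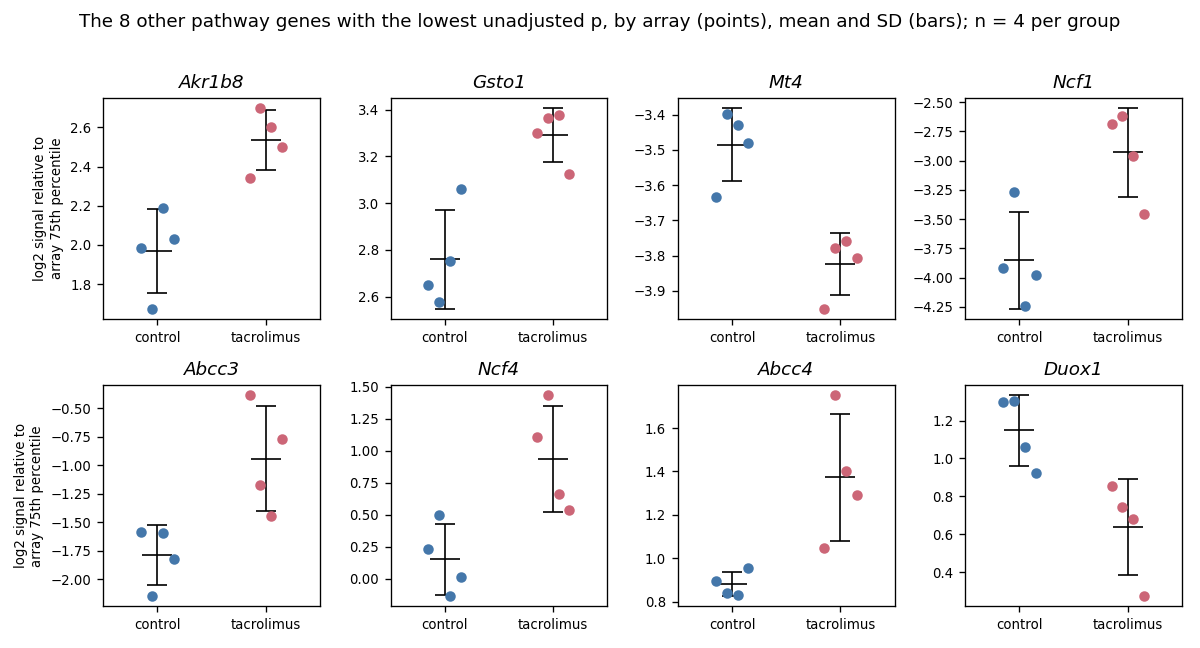
Level on each array (points, log2 signal relative to the 75th percentile of the array) of the 8 further pathway genes with the lowest unadjusted p, with the group mean and SD (bars), n = 4 per group; each panel has its own vertical axis. Tacrolimus arrays lie higher for Akr1b8, Gsto1, Ncf1, Abcc3, Ncf4 and Abcc4 and lower for Mt4 and Duox1.

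The tissue carried the markers of kidney: all 14 proximal tubule markers were well above background on all 8 arrays, their summed level was 11.1 to 11.3 in control and 10.9 to 11.4 in tacrolimus kidneys, and 1 of the 14, Aqp1, was lower at an unadjusted p under 0.05. Of 10 macrophage markers 9 were tested, and 8 (88.9%) were higher in tacrolimus kidneys at an unadjusted p under 0.05, against 7.04% of all genes. None of the macrophage markers passed an adjusted p of 0.05 in limma (lowest 0.0552). The median difference of the 9 was 1.32, and their mean level relative to the control mean was -0.34 to 0.34 in control and 0.70 to 1.59 in tacrolimus kidneys. The log2 of their summed signal, which the brightest markers dominate, was 4.92 to 5.26 in control and 5.24 to 5.61 in tacrolimus kidneys. Of 8 adipocyte markers 7 were tested and 5 (71.4%) were higher at an unadjusted p under 0.05, against 7.04% of all genes. None of the adipocyte markers passed an adjusted p of 0.05 in limma (lowest 0.166). Their mean level relative to the control mean, in which dim values in control arrays count as measured, was -0.80 to -0.40 in control 1, 3 and 4, 1.90 in control 2, and 1.71 to 4.63 in tacrolimus kidneys, highest in tacrolimus 4. Their summed level was 5.09 to 5.37 in control and 4.84 to 6.18 in tacrolimus kidneys, and the bright Cd36 and Fabp4 differed by -0.18 and 0.23. Plin1 was well above background on 0 control arrays and Adipoq on 1. Both therefore met the filter of at least 4 of 8 arrays through tacrolimus arrays. The filter favoured a higher level in them, so they lend no support to that count. Urothelial markers were highest in tacrolimus 4 as well (summed level 2.32, within -1.26 to 2.32 over the tacrolimus arrays, against -1.10 to -0.77 in control), and none of the 5 tested passed an unadjusted p of 0.05. None of the 4 thick ascending limb and 5 tested erythroid markers passed it either. The part of these cell types in the members' differences was not tested. In bulk RNA of a whole kidney, fewer cells of a type and less RNA per cell cannot be told apart. Without control 2 and tacrolimus 4 together, 4 members were higher and 3 were lower at that p, beside 6.31% and 4.68% of all genes.

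Between 64.0% and 69.8% of spots were well above background on each array, and no member spot was saturated. All 8 arrays lay on 1 slide, the control arrays in one row and the tacrolimus arrays in the other, so row and treatment cannot be told apart. Median local background signal was 22 in every control array and 19 to 20.5 in tacrolimus arrays, and its part in the members' differences was not tested. The number of arrays limits the precision.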

How the data were processed

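Per the file headers, spot intensities came from Agilent Feature Extraction 10.7.3.1, with a raw, a local background and a background-corrected processed intensity for each spot and no normalization between arrays. The authors' deposited table is in log2 units and matches, to within 5e-09, raw median intensities after quantile normalization. It served as an alternative. The submitters' processing notes name limma without settings.

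The processed intensity was put on the log2 scale and each array's 75th percentile over non-control spots was subtracted. Control features (3671) and outlier spots were left out, and spots of a probe were averaged. Probes entered the test if at least 4 of 8 arrays showed them well above background (36493 of 55649 probes), and the brightest probe stood for a gene. Symbols were updated by accession with RefSeq (GRCm38.p6), matching 28026 probes and renaming 1651. Positions of probes are on mm9, from the array's own annotation, and exon or UTR annotation of that build was not used here.

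The test was limma 3.58.1 under R 4.3.3 (lmFit, eBayes, two-sided) with treatment as the only term and Benjamini-Hochberg adjustment over all 25127 genes. The exact permutation test ran over the 70 assignments of the 8 arrays. The fit was tested on simulated data. Alternatives changed the background correction, the normalization, the filter, the choice of probe, the variance model, the array weights and the arrays included, or added the replicate number as a block. Values of every array are given for the 16 members with the lowest unadjusted p, for Nfe2l2, Nqo1 and Mt1 (chosen for their role), and for the further pathway genes the 8 with the lowest p are described. The members, the further genes and the marker lists were chosen with earlier results of these data known.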

Additional observations from a re-analysis of the deposited data

Results flagged for a closer look

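In each of the 38 genes, the highest and the lowest array of either group were set against the others of that group, 76 groups of 4 in all. In 2 of them 1 array stood apart by a gap that, as a share of the group's range, was above Dixon's 95% critical value. Chance alone gives about 1 in 20 such groups. In Mgst1, control 1 (2.08) lay below the other control arrays (2.37 to 2.40), with a gap of 0.901 of the range. In Sod3, tacrolimus 2 (6.57) lay below the other tacrolimus arrays (6.73 to 6.75), with a gap of 0.910 of the range. Both arrays lie on the far side of their own group from the other group.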

How the results depend on the processing

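Members called at an adjusted p under 0.05 in limma numbered 0, and 2 (Mgst1 and Srxn1) under normexp background, in the deposited table, with a filter on all 8 arrays, with trend and robust estimation and with array weights; the other 14 alternatives gave 0. Members lower at an unadjusted p under 0.05 numbered 9, against 5 with the replicate block, 3 without control 2 and tacrolimus 4, 11 with array weights (adding Gclm and Sod2), and 3 to 9 when 1 array was left out. The share of all genes lower at that p was 8.42%, and 9.55%, 4.68% and 10.8% in the first 3 of these settings. Members higher numbered 5, and 4 to 6 over all alternatives. Quantile normalization and the deposited table each gave 6 higher and 6 lower, a more even split than 5 and 9. Over all genes, 7 to 309 were called at an adjusted p, against 57.

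Of the 38 members, 26 kept the sign of their difference in all 19 alternatives. The other 12 turned it at least once, in none of them at an unadjusted p under 0.05. Under quantile normalization the difference became 0.0120 for Gpx1, 0.0270 for Gpx4, 0.0395 for Prdx2, 0.0104 for Prdx5 and 0.0153 for Gstm3. In the deposited table the difference became 0.0101 for Gpx4, 0.0241 for Prdx2 and 0.0272 for Gstm3. Under normexp the difference became 0.000356 for Gstm3. Under median scaling the difference became -0.0413 for Gpx3 and -0.00123 for Prdx6. With array weights the difference became -0.0424 for Gpx3, -0.0268 for Prdx6 and 0.0191 for Gstm3. With the mean of probes the difference became 0.0586 for Prdx1. Without control 2 and tacrolimus 4 the difference became -0.0108 for Nfe2l2 and -0.0270 for Prdx6. With 1 array left out, the differences ran from -0.0883 to 0.0919 for Gpx3, -0.148 to 0.0476 for Gpx4, -0.147 to 0.0814 for Gss, -0.199 to 0.0306 for Gstm1, -0.00440 to 0.159 for Gstm2, -0.124 to 0.117 for Gstm3, -0.0208 to 0.154 for Nfe2l2, -0.0855 to 0.0569 for Prdx2, -0.160 to 0.0103 for Prdx5 and -0.0372 to 0.110 for Prdx6. Srxn1, Cat, Gsta2, Gsta4, Mgst1 and Mt2 passed an unadjusted p of 0.05 in all 19, Prdx3 in 17, Gclc and Hmox1 in 13, Txnrd1 in 12, Sod3 and Prdx4 in 11, Gstp1 in 10 and Txn1 in 9. The cause of these changes was not tested. Arrays of the same replicate number in the groups had correlated deviations of 0.0207 to 0.156, not above 0.1 in every pair, so the number was not taken as a pairing, and whether it marks one is unknown. For 7 of 8 arrays the best match in the other group had the same number, a hint from the data and not from the design. With the block, 103 genes were called against 57. The brightest probe of each member was well above background on every array, and the part of background signal in these changes was not tested.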
